A study of Rattus norvegicus with 18 samples.

Results

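The genes described here act in blood clotting and in the activation of plasminogen, and they were followed across 6 groups of rat extraembryonic endoderm cultures. They are the 9 genes F3, F2, F5, Thbd, Tfpi, Plat, Plau, Plaur and Serpine2, taken by symbol from the 28695 genes in the count files. Bulk RNA was sequenced from 18 cultures of pXEN cells, labelled rat XENP, which are extraembryonic endoderm precursors from female WKY blastocysts. Each group had 3 libraries. The protocol gives 1 recipe for vesicles, N2B27 medium with the GSK3 inhibitor CHIR99021 at 3 µM and murine LIF at 10 ng/ml, which is read here as that of the serum-free vesicles (passages 32, 35 and 42). Serum vesicles are labelled with CHIR and serum (passages 32, 35 and 49), and whether the same dose applied to them is not stated. Sorted CHIR-vacuolated cells received 0.5 µM CHIR99021 and were then sorted, by a property the labels do not name (passages 35, 38 and 49). Unsorted CHIR-vacuolated cells received the same dose (passages 37, 41 and 51). BCS-vacuolated cells received 14% BCS, an abbreviation that the labels leave unexplained (passages 41, 32 and 42). Normal pXEN cells were kept in routine culture (passages 37, 40 and 51). By their labels, all groups are in vitro cultures of the same cell type. Nothing in the labels says whether the libraries of a group came from separate derivations. Every p-value below therefore measures the spread between these libraries, as each fit estimates it, and that spread may be partly technical.

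Clotting starts when tissue factor, the product of F3, binds factor VII, and it leads through the factor Xa and Va complex to thrombin, which is made from the prothrombin that F2 encodes. Tfpi encodes an inhibitor of the tissue factor complex, and Thbd encodes thrombomodulin, which binds thrombin on the cell surface and turns it towards the activation of protein C. In the plasminogen system the activators tPA (Plat) and urokinase (Plau) make plasmin, Plaur is the receptor for urokinase, and Serpine2 (protease nexin 1) inhibits thrombin and both activators. In the mouse embryo, parietal endoderm is known to carry thrombomodulin and to make tPA, and visceral endoderm is known to make urokinase.

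The promoters of Plaur, Tfpi and F2 are shown because these genes rose in different groups: Plaur in BCS-vacuolated cells, Tfpi in vesicles and sorted cells, and F2 in all groups other than normal cells. The promoters are from RefSeq, build GRCr8, where 7 entries matched 6 of the 9 genes; Thbd, F3 and Plat were not matched. The deposited counts were made on rn6 and carry no coordinates, so the sequences below serve only as context. Each runs 5′ to 3′ over the 250 bases before the annotated start. Capitals mark every match, on either strand, to 5 motifs. They are CTTTGAT, a motif of the TCF/LEF factors that act downstream of GSK3. The AP-1 motif is written TGANTCA. The motif of GATA factors is AGATAA, and none of the 7 entries holds it. The SP1 motif is GGGCGG. The NF-Y motif is CCAAT. None of the motifs lies within another of the set. The Plaur entry lies at chr1:89181113-89181362 on the plus strand. The Tfpi entries lie at chr3:89980725-89980974 and chr3:89983544-89983793, and the F2 entry at chr3:98065247-98065496, all on the minus strand.
Plaur: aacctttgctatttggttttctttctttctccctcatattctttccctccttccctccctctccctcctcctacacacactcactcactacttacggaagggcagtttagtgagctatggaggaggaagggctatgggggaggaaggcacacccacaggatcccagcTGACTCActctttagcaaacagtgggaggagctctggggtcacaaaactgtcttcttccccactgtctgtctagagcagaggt
Tfpi, first entry: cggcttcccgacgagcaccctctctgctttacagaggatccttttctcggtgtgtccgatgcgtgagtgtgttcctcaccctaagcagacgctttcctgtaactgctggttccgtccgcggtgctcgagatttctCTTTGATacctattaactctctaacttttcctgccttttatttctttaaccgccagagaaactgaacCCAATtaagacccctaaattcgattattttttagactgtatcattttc
Tfpi, second entry: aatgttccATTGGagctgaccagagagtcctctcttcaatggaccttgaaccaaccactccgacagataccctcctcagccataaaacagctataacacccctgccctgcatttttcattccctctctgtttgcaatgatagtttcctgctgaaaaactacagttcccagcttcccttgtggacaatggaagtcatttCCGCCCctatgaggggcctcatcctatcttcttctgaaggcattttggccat
F2: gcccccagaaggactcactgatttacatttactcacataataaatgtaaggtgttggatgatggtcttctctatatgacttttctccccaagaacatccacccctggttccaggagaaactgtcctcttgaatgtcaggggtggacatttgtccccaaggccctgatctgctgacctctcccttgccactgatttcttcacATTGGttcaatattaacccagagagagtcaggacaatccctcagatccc
The Plaur window holds 1 AP-1 match, TGACTCA, at 77 to 83 bases before the start. The first Tfpi window holds CTTTGAT at 109 to 115 and CCAAT at 44 to 48 bases before the start, and the second holds CCGCCC at 47 to 52 and ATTGG at 238 to 242. The F2 window holds ATTGG at 45 to 49 bases before the start. In 33469 promoter windows of the same length the motifs occurred in 3.15% (CTTTGAT), 6.34% (TGANTCA), 10.3% (AGATAA), 30.5% (GGGCGG) and 34.0% (CCAAT). A match is a description of letters and not a bound site.

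The libraries held 4050722 to 12074939 counts on the strand used, of which 2 clone-named genes took 37.6 to 61.1%. Levels are given in CPM, counts brought to a common library total and then scaled by TMM, a method that sets the bulk of genes equal between libraries. They are not divided by transcript length, so levels are compared between groups and never between genes. The markers of the labelled cell type were present, since all 10 listed genes of extraembryonic endoderm precursor identity were tested in the fit and none was at 0 in any group. Their summed level was 787 to 916 CPM in serum vesicles and 1835 to 2052 CPM in normal cells, and Pou5f1, the pluripotency factor kept by these precursors, averaged 0.75 CPM in serum-free vesicles, 1.25 in serum vesicles and 118 in normal cells. Of 16 listed parietal endoderm genes, 4 were higher and 7 lower in serum vesicles than in normal cells, with the same numbers in serum-free vesicles. Of the 16 visceral endoderm genes, 10 were tested, and 6 were higher and 2 lower in each kind of vesicle. Of all genes, 60.4% passed in serum vesicles and 57.7% in serum-free vesicles, and nothing is read from these counts about either list. The summed level of 8 trophoblast genes was 19.6 to 28.4 CPM in serum-free vesicles and 22.1 to 33.8 in serum vesicles against 7.87 to 10.2 CPM in normal cells, and that of 11 fibroblast genes was 1.34 to 2.82 and 3.50 to 16.4 against 1.06 to 12.9 CPM. Of the trophoblast genes 2 were tested, and they moved in opposite directions. Cdx2, a trophoblast transcription factor, averaged 22.2 CPM in serum-free vesicles and 25.0 in serum vesicles and had 0 counts in normal cells. Eomes, another such factor, averaged 0.969 and 0.854 CPM against 8.25 CPM in normal cells. The part of these trophoblast markers in the members' results was not tested. One library stood apart: serum-free vesicle replicate 2 had 252 counts of Afp and 346 of Apoa1, liver and visceral endoderm transcripts, against 2 to 5 and 0 to 2 counts in the other serum-free vesicle libraries. Results that leave that library out are given below for F2, F3, Thbd and Plau.

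Of the 9 genes, 7 were tested. F5 and Plau stayed below the filter on low counts, a level of 1.41 CPM in at least 3 libraries. F2 passed through its levels in serum vesicles and both CHIR99021-vacuolated groups, and Serpine2 passed through serum vesicles, so for these genes the test starts from a group in which they are high. All 7 differed somewhere among the 6 groups (edgeR quasi-likelihood F test, Benjamini-Hochberg adjusted p under 0.05), as did 79% of all 11503 genes tested.

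The comparisons with normal cells asked what each culture changed in these genes, and the count of members called is set beside the share of all genes called. In serum-free vesicles 5 of 7 passed (3 higher and 2 lower), where 57.7% of all genes did (30.2% higher and 27.5% lower). In serum vesicles 6 of 7 passed (4 higher and 2 lower), where 60.4% of all genes did (31.7% higher and 28.8% lower). In sorted CHIR-vacuolated cells 4 of 7 passed (3 higher and 1 lower), against 25.9% of all genes (14.4% higher and 11.5% lower). In unsorted CHIR-vacuolated cells F2 alone passed, and it was higher, against 7.62% of all genes (4.49% higher and 3.13% lower). In BCS-vacuolated cells 3 of 7 passed, all higher, against 20.7% of all genes (11.2% higher and 9.51% lower). The same normal libraries serve all 5 of these comparisons. F2 and Serpine2 are counted here although they passed the filter through groups in which they are high. F2 was higher in every one, Thbd and F3 were lower in both kinds of vesicle, and Plat was higher in each group except unsorted CHIR-vacuolated cells, where it missed the threshold.

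**Figure D1:**
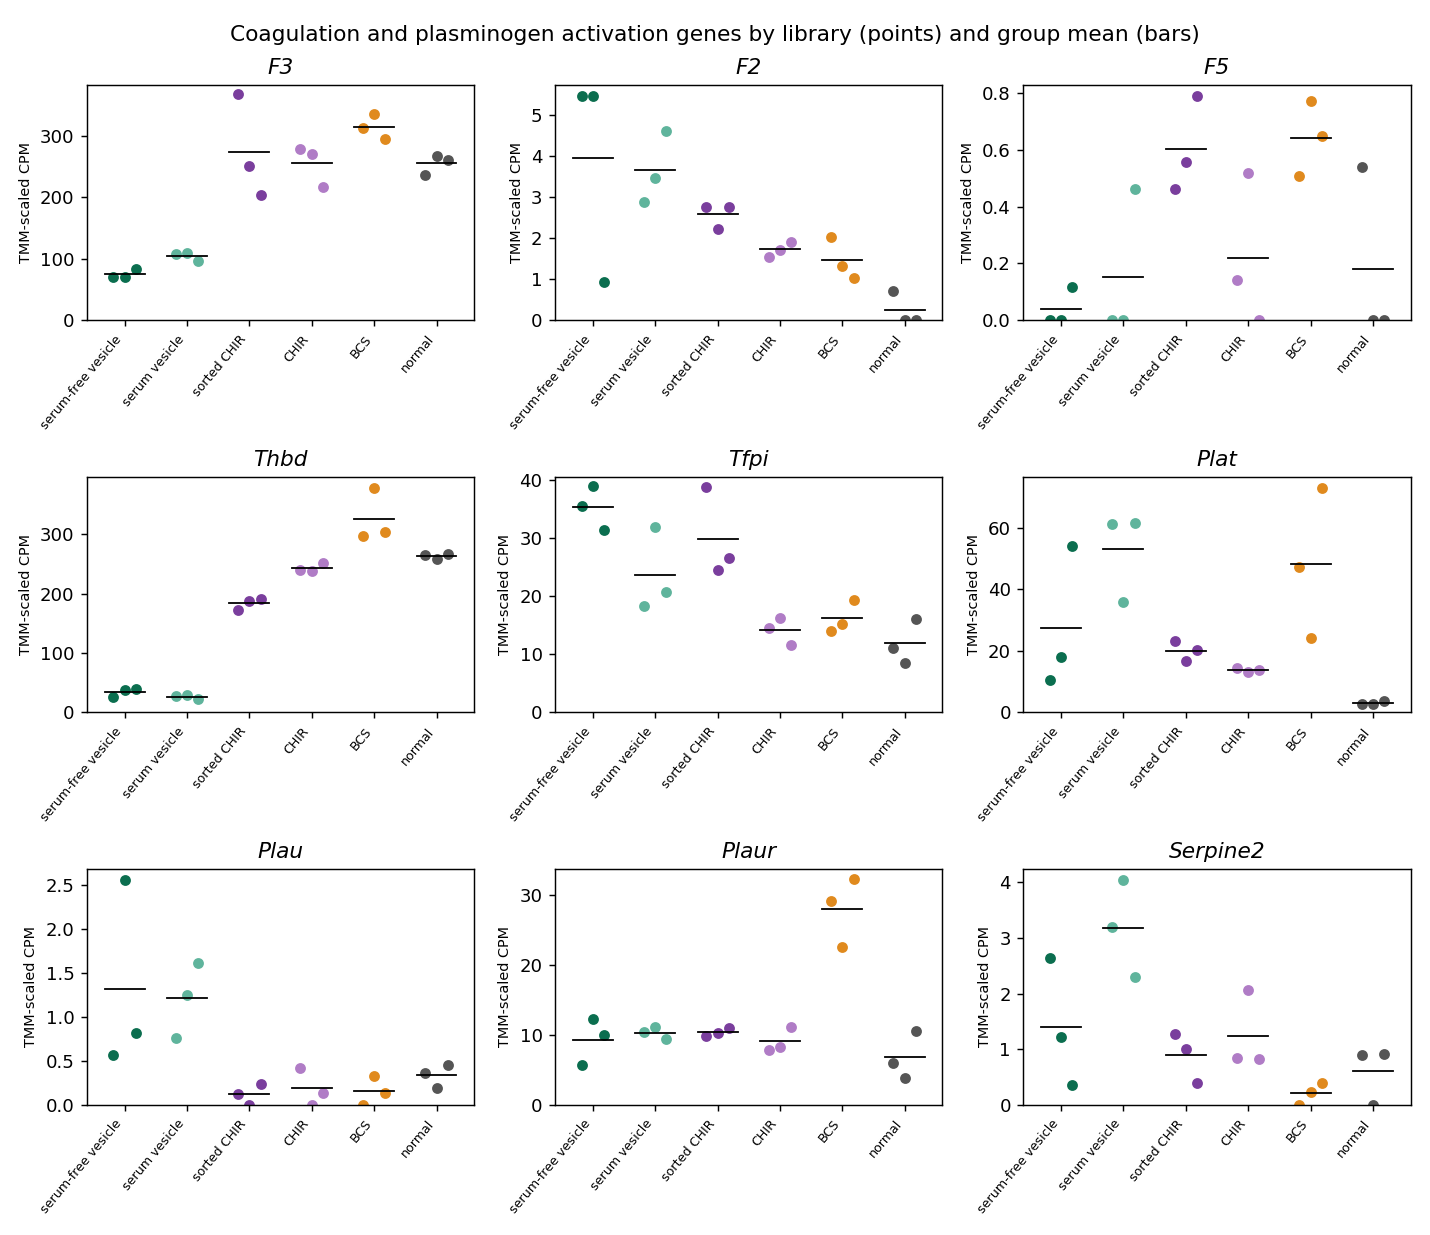
TMM-scaled CPM (y axis, from 0) of the 9 genes in the 3 libraries of each group (points), with bars at the group mean. F3 and Thbd are low in both kinds of vesicle, F2 and Plat are lowest in normal cells, and Plaur is highest in BCS-vacuolated cells, at 22.6 to 32.2 CPM.

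Thbd, the thrombin receptor that starts protein C activation, had the smallest p of any member in the vesicles. It had 26.7, 38.6 and 39.2 CPM in serum-free vesicles and 27.5, 29.2 and 22.4 CPM in serum vesicles, against 265, 258 and 268 CPM in normal cells. Every vesicle library lay far below every normal library, and the groups did not overlap. Thbd was 9.92-fold lower in serum vesicles (log2 fold change -3.31, approximate standard error 0.15, edgeR adjusted p = 4.95e-15) and 7.50-fold lower in serum-free vesicles (-2.91 ± 0.14, edgeR adjusted p = 2.34e-14). Because these are bulk samples, fewer cells that carry a transcript and less of it per cell cannot be told apart, here or for any gene below.

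Thbd stayed well above the vesicles in the vacuolated groups. Sorted CHIR-vacuolated cells had 172, 188 and 191 CPM, unsorted CHIR-vacuolated cells had 241, 239 and 251 CPM, and BCS-vacuolated cells had 297, 379 and 304 CPM. Every sorted and unsorted CHIR-vacuolated library lay below all normal libraries, and every BCS-vacuolated library lay above them. The sorted cells were 1.43-fold lower than normal cells (log2 fold change -0.52 ± 0.13, edgeR adjusted p = 0.00437). Unsorted CHIR-vacuolated cells (-0.11, edgeR adjusted p = 0.683) and BCS-vacuolated cells (0.31, edgeR adjusted p = 0.0933) missed the threshold. The BCS-vacuolated comparison passed when the 2 groups were fitted alone (0.34, edgeR adjusted p = 0.0467). From high to low the mean levels ran BCS-vacuolated 326 ± 45.5, normal 264 ± 4.69, unsorted CHIR-vacuolated 244 ± 6.93, sorted CHIR-vacuolated 184 ± 10.2, serum-free vesicle 34.9 ± 7.05 and serum vesicle 26.4 ± 3.58 CPM (mean ± SD, n = 3), and only the 2 kinds of vesicle overlapped as neighbours.

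Thbd is also a marker of endothelium, so the listed endothelial genes are given beside it. Pecam1 was not analysed here, and of the other 10 listed genes Emcn and Robo4 had 0 counts in all 18 libraries. Their summed level was 13.4 to 24.0 CPM in serum-free vesicles and 19.6 to 29.7 CPM in serum vesicles, against 62.4 to 65.1 CPM in normal cells. Most of that sum came from Tek, an angiopoietin receptor, at 12.2 CPM in serum-free vesicles, 15.4 in serum vesicles and 54.0 in normal cells. Cldn5 had 1 count in all 18 libraries. The summed level of the 16 parietal endoderm genes, a cell type known to carry thrombomodulin in the mouse, was 5092 to 6102 CPM in serum-free vesicles and 4465 to 5042 in serum vesicles, against 6249 to 7220 CPM in normal cells. The part of either list in the Thbd result was not tested.

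F3, which encodes tissue factor, was the other member that fell in the vesicles. It had 70.4, 70.8 and 83.6 CPM in serum-free vesicles and 109, 110 and 97.1 CPM in serum vesicles, against 237, 268 and 262 CPM in normal cells. No vesicle library reached the lowest normal library. F3 was 3.40-fold lower in serum-free vesicles (log2 fold change -1.77 ± 0.16, edgeR adjusted p = 1.36e-09) and 2.43-fold lower in serum vesicles (-1.28 ± 0.16, edgeR adjusted p = 1.89e-07) than in normal cells.

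None of the vacuolated groups differed from normal cells in F3 by the test. It had 368, 251 and 204 CPM in sorted CHIR-vacuolated cells, 278, 271 and 217 CPM in unsorted CHIR-vacuolated cells and 313, 337 and 295 CPM in BCS-vacuolated cells. Replicate 1 of the sorted cells was the highest library of all, replicate 3 of that group lay below every normal library, and the BCS-vacuolated libraries all lay above them. All 3 comparisons with normal cells missed the threshold (log2 fold changes 0.10, 0.00 and 0.30, edgeR adjusted p = 0.671, 1 and 0.170, for sorted, unsorted and BCS-vacuolated cells in turn). The BCS-vacuolated comparison passed when the 2 groups were fitted alone (edgeR adjusted p = 0.0378). Going down in mean level, F3 was at 315 ± 20.7 CPM in BCS-vacuolated, 274 ± 84.6 in sorted, 256 ± 33.8 in unsorted CHIR-vacuolated and 255 ± 16.6 in normal cells, where neighbours overlapped, and then at 105 ± 6.95 in serum vesicles and 74.9 ± 7.52 CPM in serum-free vesicles, which did not.

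**Figure D2:**
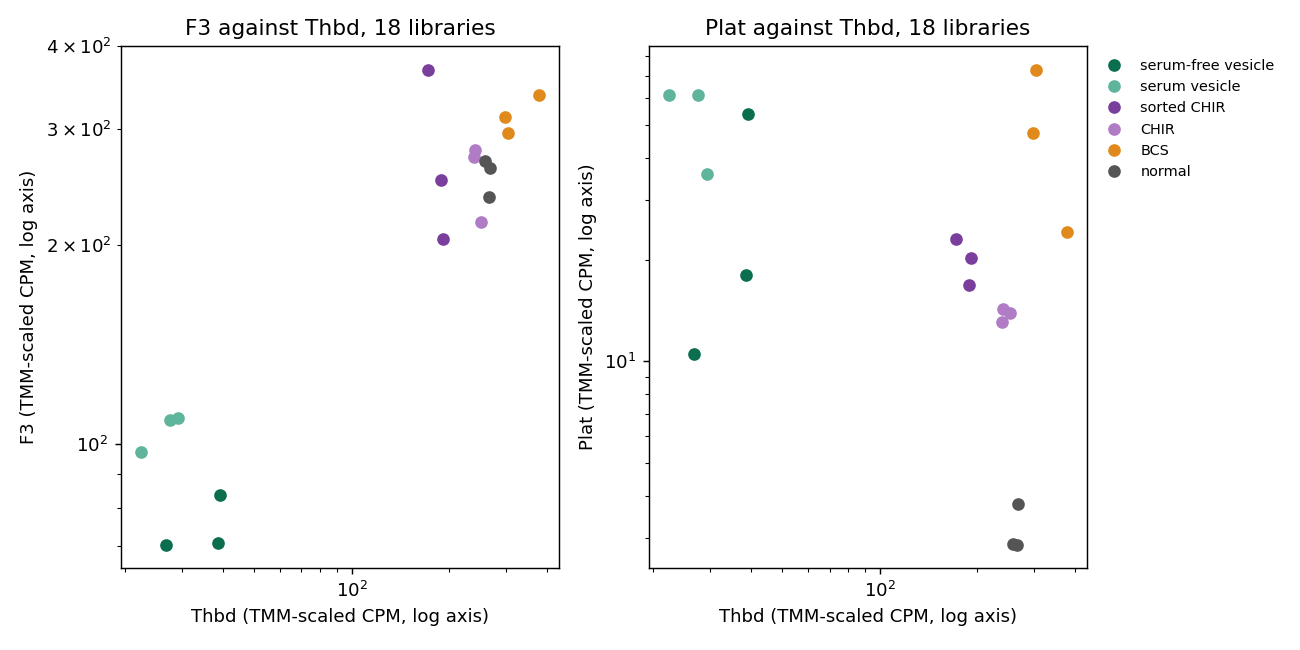
F3 (left) and Plat (right) against Thbd, in TMM-scaled CPM on log axes, for the 18 libraries, coloured by group. Vesicles form a cluster low in both Thbd and F3, whereas Plat is above 10 CPM in every library outside normal cells, whether Thbd is high or low.

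F2 encodes prothrombin, a protein made mainly by the liver, and it was rare in all groups. It had 29, 45 and 8 counts in serum-free vesicles, 19, 25 and 20 in serum vesicles, 24, 20 and 35 in sorted CHIR-vacuolated cells, 11, 10 and 14 in unsorted CHIR-vacuolated cells, 12, 12 and 8 in BCS-vacuolated cells, and 4, 0 and 0 in normal cells. Every library of the other groups had a higher F2 level than any normal library. Summed over the 3 libraries of a group, the level was 3.70 CPM in serum-free vesicles (exact 95% Poisson interval 2.95 to 4.60), 1.73 CPM in unsorted CHIR-vacuolated cells (1.20 to 2.40) and 0.230 CPM in normal cells (0.0627 to 0.589). These intervals cover counting error only. Replicates 1, 2 and 3 of the serum-free vesicles had 5.46, 5.46 and 0.932 CPM, so by level replicate 2 equalled replicate 1 and replicate 3 was low. Without serum-free vesicle replicate 2, which held 45 of the 82 counts of its group and also the Afp and Apoa1 transcripts, the pooled level there was 2.66 CPM (1.87 to 3.67), a value added after seeing the data. The part of those transcripts' source in the F2 count was not tested.

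Reads on the strand opposite to F2 were few as well, but not few beside the F2 counts. Summed over a group they were 7 in serum-free vesicles, 11 in serum vesicles, 9 in sorted, 2 in unsorted CHIR-vacuolated and 9 in BCS-vacuolated cells, and 5 in normal cells. The F2 strand held 82, 64, 79, 35, 32 and 4 counts in those groups, so that in normal cells the opposite strand held more than the F2 strand. What makes these reads was not tested.

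The test called F2 higher than in normal cells in serum-free vesicles (log2 fold change 3.97, edgeR adjusted p = 9.41e-05), serum vesicles (3.87, edgeR adjusted p = 1.39e-04) and sorted CHIR-vacuolated cells (3.39, edgeR adjusted p = 0.00230). F2 passed the filter on low counts through serum vesicles and both CHIR99021-vacuolated groups, so their calls start from groups in which it is high. Without serum-free vesicle replicate 2 the log2 fold change of serum-free vesicles was 3.60 and the call held (edgeR adjusted p = 8.63e-04). The rises in unsorted CHIR-vacuolated cells (2.81, edgeR adjusted p = 0.0368) and BCS-vacuolated cells (2.55, edgeR adjusted p = 0.0349) stood close to the threshold. With only 4 counts in normal cells the size of these fold changes is uncertain, and over the alternative settings it ran from 1.79 to 6.69 for unsorted CHIR-vacuolated cells. The call there was lost without normal replicate 2 (edgeR adjusted p = 0.156), without normal replicate 3 (0.169), without any 1 of the 3 CHIR-vacuolated replicates (0.0748 to 0.0941), with unstranded counts (0.120) and with libraries thinned to equal counts (0.0503). In BCS-vacuolated cells it was lost without BCS replicate 1 (edgeR adjusted p = 0.120), normal replicate 2 (0.127) or normal replicate 3 (0.152), with unstranded counts (0.0617) and with thinned libraries (0.0710). With the 2 groups fitted alone, F2 stayed below the filter for serum-free vesicles, unsorted CHIR-vacuolated cells and BCS-vacuolated cells, so it was not tested. Mean F2 levels ran from 3.95 ± 2.62 CPM in serum-free vesicles through 3.66 ± 0.87 in serum vesicles, 2.59 ± 0.30 in sorted, 1.73 ± 0.19 in unsorted CHIR-vacuolated and 1.46 ± 0.51 in BCS-vacuolated cells to 0.239 ± 0.41 CPM in normal cells. Serum-free vesicles, at 0.932 to 5.46 CPM, overlapped every other group except normal cells. Unsorted CHIR-vacuolated and BCS-vacuolated cells also overlapped each other.

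F5, the cofactor that factor Xa needs to make thrombin, was near the limit of detection. Its counts were 0, 0 and 1 in serum-free vesicles, 0, 0 and 2 in serum vesicles, 4, 5 and 10 in sorted CHIR-vacuolated cells, 1, 3 and 0 in unsorted CHIR-vacuolated cells, 3, 7 and 5 in BCS-vacuolated cells, and 3, 0 and 0 in normal cells. All libraries of the sorted and BCS-vacuolated groups had F5 counts, but its levels in both overlapped those of normal cells. It was not tested in the main fit, and in a fit of all 20171 genes with no filter none of its comparisons passed.

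Tfpi, the inhibitor of the tissue factor complex, rose in the vesicles and in the sorted cells. It had 35.6, 39.0 and 31.4 CPM in serum-free vesicles, 18.3, 31.9 and 20.7 in serum vesicles and 38.7, 24.5 and 26.5 in sorted CHIR-vacuolated cells, against 11.1, 8.44 and 16.0 CPM in normal cells. None of these libraries overlapped the normal ones. The change was 2.94-fold in serum-free vesicles (log2 fold change 1.56 ± 0.24, edgeR adjusted p = 5.46e-06), 1.98-fold in serum vesicles (0.99 ± 0.24, edgeR adjusted p = 0.00115) and 2.49-fold in sorted cells (1.31 ± 0.24, edgeR adjusted p = 2.42e-04). Unsorted CHIR-vacuolated cells, at 14.6, 16.2 and 11.6 CPM, and BCS-vacuolated cells, at 14.1, 15.3 and 19.4 CPM, overlapped normal cells and missed the threshold (0.23, edgeR adjusted p = 0.662, and 0.44, edgeR adjusted p = 0.209). Ordered by mean, the groups ran serum-free vesicle 35.3 ± 3.77, sorted 29.9 ± 7.70, serum vesicle 23.6 ± 7.25, BCS-vacuolated 16.3 ± 2.80, unsorted CHIR-vacuolated 14.1 ± 2.33 and normal 11.9 ± 3.86 CPM, with each neighbour overlapping the next. The 3 groups in which Tfpi rose also had the highest share of mitochondrially encoded counts, taken over the counts outside the 2 clone-named genes. It was 7.11 to 9.43% in serum-free vesicles, 7.91 to 9.31% in serum vesicles and 6.76 to 8.91% in sorted cells, against 3.13 to 3.38% in normal cells. The part of that share in the Tfpi result was not tested.

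Plat, which encodes the activator tPA, was low in normal cells and higher in every other library. It had 10.5, 18 and 54.0 CPM in serum-free vesicles, 61.3, 35.9 and 61.5 CPM in serum vesicles, and 2.87, 2.88 and 3.78 CPM in normal cells. The serum-free vesicles spread widely, with replicate 3 at the level of serum vesicles. Plat was 16.3-fold higher in serum vesicles (log2 fold change 4.03 ± 0.63, edgeR adjusted p = 9.91e-05) and 8.71-fold higher in serum-free vesicles (3.12 ± 0.64, edgeR adjusted p = 9.37e-04) than in normal cells. Without serum-free vesicle replicate 3 the log2 fold change was 2.17 and the call held (edgeR adjusted p = 8.75e-04).

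Vacuolated cells had intermediate to high Plat. It had 23.0, 16.8 and 20.3 CPM in sorted CHIR-vacuolated cells, 14.3, 13.1 and 13.9 CPM in unsorted CHIR-vacuolated cells and 47.3, 24.1 and 72.9 CPM in BCS-vacuolated cells. Every one of these libraries was above the highest normal library, and the BCS-vacuolated libraries overlapped those of serum vesicles. The rise was 14.9-fold in BCS-vacuolated cells (log2 fold change 3.90 ± 0.63, edgeR adjusted p = 9.14e-04) and 6.22-fold in sorted cells (2.64 ± 0.64, edgeR adjusted p = 0.00928). Unsorted CHIR-vacuolated cells had a fold change of 4.28 that missed the threshold (2.10 ± 0.67, edgeR adjusted p = 0.0806), although DESeq2 called it (adjusted p = 0.00289), as did the fit with no filter on low counts (2.72e-15), the fit of the 2 groups alone (8.79e-08) and the fit with a replicate block (0.0171). The log2 fold change was 2.10 with no filter and 2.11 with the 2 groups alone, against 2.10 in the main fit. The p-values of these fits therefore differ mainly through the spread each takes, and they are not read as added support. From high to low the means were serum vesicle 52.9 ± 14.7, BCS-vacuolated 48.1 ± 24.4, serum-free vesicle 27.5 ± 23.3 and sorted 20.03 ± 3.15 CPM, each overlapping the next, then unsorted CHIR-vacuolated 13.8 ± 0.61 and normal 3.18 ± 0.52 CPM. Unsorted CHIR-vacuolated cells lay below the sorted cells but within the range of serum-free vesicles (10.5 to 54.0 CPM). Normal cells lay below every other group.

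Plau, the urokinase gene, was detected at a few counts per library. It had 3, 21 and 7 counts in serum-free vesicles, 5, 9 and 7 in serum vesicles, 1, 0 and 3 in sorted CHIR-vacuolated cells, 3, 0 and 1 in unsorted CHIR-vacuolated cells, 0, 3 and 1 in BCS-vacuolated cells, and 2, 1 and 3 in normal cells. Each vesicle library had a higher level than any library of the other groups. Pooled over a group, the level was 1.40 CPM in serum-free vesicles (exact 95% Poisson interval 0.952 to 1.99) and 1.16 CPM in serum vesicles (0.718 to 1.77), against 0.345 CPM in normal cells (0.127 to 0.751). Without serum-free vesicle replicate 2 the pooled level of serum-free vesicles was 0.720 CPM (0.345 to 1.32), a value added after seeing the data, and its interval overlapped that of normal cells. In the fit with no filter on low counts, Plau was called in serum vesicles against unsorted CHIR-vacuolated cells (log2 fold change 2.48, edgeR adjusted p = 0.0410), but not in serum-free vesicles (1.93, edgeR adjusted p = 0.0989) or serum vesicles (1.72, edgeR adjusted p = 0.161) against normal cells. That fit also gave Plat a far smaller p than the main fit, so its Plau call is not read as support. Replicate 2 held 21 of the 31 counts of the serum-free vesicles, and it is the library that also held the Afp and Apoa1 transcripts. The part of those transcripts' source in the Plau count was not tested.

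Plaur, the receptor that holds urokinase at the cell surface, stood out in BCS-vacuolated cells. It had 29.2, 22.6 and 32.2 CPM there, against 5.92, 3.84 and 10.6 CPM in normal cells. The lowest BCS-vacuolated library was above every library of every other group. Plaur was 4.04-fold higher than in normal cells (log2 fold change 2.01 ± 0.27, edgeR adjusted p = 1.26e-05), and the call held in all alternatives, with log2 fold changes of 1.76 to 2.51.

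Outside BCS-vacuolated cells Plaur did not pass against normal cells. Serum-free vesicles had 5.65, 12.3 and 9.90 CPM, serum vesicles 10.3, 11.1 and 9.45 CPM, sorted CHIR-vacuolated cells 9.79, 10.3 and 11 CPM, and unsorted CHIR-vacuolated cells 7.85, 8.28 and 11.1 CPM. All 4 overlapped normal cells, in which replicate 3 was the highest library, and missed the threshold (edgeR adjusted p = 0.184, 0.0846, 0.129 and 0.485, in that order). Without normal replicate 3 Plaur passed in serum vesicles (log2 fold change 1.07, edgeR adjusted p = 0.00526), serum-free vesicles (0.94, edgeR adjusted p = 0.0127) and sorted cells (1.08, edgeR adjusted p = 0.0142). It also passed in serum-free vesicles without their own replicate 1 (0.68, edgeR adjusted p = 0.0441), and in serum vesicles (0.0218) and serum-free vesicles (0.0493) with passage as a covariate. Mean levels were 28.0 ± 4.94 CPM in BCS-vacuolated cells, 10.3 ± 0.59 in sorted cells, 10.3 ± 0.84 in serum vesicles, 9.27 ± 3.35 in serum-free vesicles, 9.07 ± 1.75 in unsorted CHIR-vacuolated cells and 6.79 ± 3.46 in normal cells, with overlap between all neighbours below BCS.

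Serpine2, the inhibitor of thrombin and of plasminogen activators, was called in serum vesicles alone. It had 14, 10 and 3 counts in serum-free vesicles, 21, 29 and 10 in serum vesicles, 11, 9 and 5 in sorted CHIR-vacuolated cells, 6, 12 and 6 in unsorted CHIR-vacuolated cells, 0, 2 and 3 in BCS-vacuolated cells, and 5, 0 and 6 in normal cells. Serum vesicles lay above normal cells in every library, at 3.19, 4.04 and 2.31 CPM against 0.897, 0 and 0.908 CPM. The log2 fold change was 2.34 ± 0.72 (edgeR adjusted p = 0.00704). Serpine2 passed the filter on low counts only through serum vesicles, so this call starts from the group in which it is high. The remaining 4 comparisons with normal cells missed the threshold and overlapped (edgeR adjusted p = 0.261 to 0.722). By mean the groups ran serum vesicle 3.18 ± 0.87, serum-free vesicle 1.40 ± 1.15, unsorted CHIR-vacuolated 1.24 ± 0.72, sorted 0.889 ± 0.45, normal 0.602 ± 0.52 and BCS-vacuolated 0.203 ± 0.19 CPM, and each neighbour overlapped the next.

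**Figure D3:**
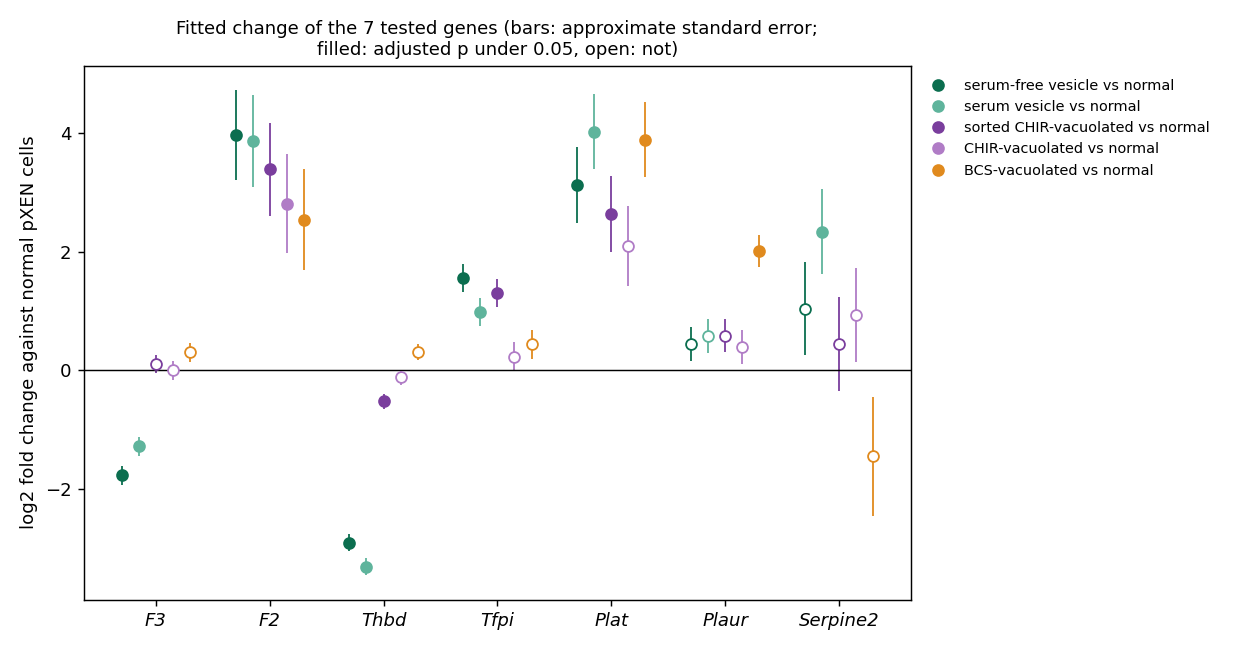
Log2 fold change against normal cells (y axis) of the 7 tested genes in the 5 comparisons with normal cells, with approximate standard errors. Filled points passed an adjusted p of 0.05 and open points did not. Thbd and F3 lie below 0 in the vesicles, F2 lies above 0 in all 5 comparisons, and Plaur is filled only for BCS-vacuolated cells.

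The next comparison asked how serum-free vesicles differed from serum vesicles, and of 7 members 1 was higher and 1 lower, where 24.4% of all genes passed (12.9% higher and 11.5% lower). F3 was 1.40-fold lower in serum-free vesicles (log2 fold change -0.49 ± 0.16, edgeR adjusted p = 0.0279), with no overlap between libraries. Thbd was 1.32-fold higher (0.40 ± 0.15, edgeR adjusted p = 0.0456), with overlap. Both calls were lost without serum-free vesicle replicate 2, the library that stands apart (-0.44, edgeR adjusted p = 0.0949, for F3, and 0.33, edgeR adjusted p = 0.165, for Thbd), and also without serum vesicle replicate 1 (-0.46, edgeR adjusted p = 0.0748, and 0.43, edgeR adjusted p = 0.0728). F3 was lost too without serum-free vesicle replicate 1 (edgeR adjusted p = 0.0756) or serum vesicle replicate 2 (0.0636), and Thbd without serum-free vesicle replicate 3 (0.185) or serum vesicle replicate 3 (0.183). The Thbd call was also lost with passage (0.0528), with a replicate block (0.0523) and with the 2 groups alone (0.234). Plat was at 27.5 ± 23.3 CPM in serum-free vesicles and 52.9 ± 14.7 CPM in serum vesicles and missed the threshold (-0.91 ± 0.49, edgeR adjusted p = 0.197). Without serum-free vesicle replicate 3, which lay at the level of serum vesicles, Plat was called lower (-1.85, edgeR adjusted p = 0.00370), as it was with no filter on low counts (3.19e-05). With no filter the log2 fold change was -0.86 and the libraries of the 2 groups overlapped, so that call is not read as added support. Tfpi missed the threshold (0.57 ± 0.22, edgeR adjusted p = 0.0643) and passed without serum vesicle replicate 2 (0.87, edgeR adjusted p = 0.00879) and with no filter on low counts (0.0123). For Serpine2 the log2 fold change was -1.30 (edgeR adjusted p = 0.139) and became -2.02 (edgeR adjusted p = 0.0466) without serum-free vesicle replicate 1. Since Serpine2 passed the main filter on low counts only through serum vesicles, where it is high, that pass is not read as support.

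Sorting was examined by setting sorted against unsorted CHIR-vacuolated cells. Of 7 members 1 was higher and 1 lower, against 11.7% of all genes called (6.69% higher and 5.05% lower). Tfpi was 2.12-fold higher in the sorted cells (log2 fold change 1.08 ± 0.23, edgeR adjusted p = 0.00290) and did not overlap. Thbd was 1.33-fold lower (-0.41 ± 0.13, edgeR adjusted p = 0.0409), also without overlap, but this call was lost on leaving out any 1 of the 6 libraries (edgeR adjusted p = 0.0792 to 0.134). F2 (log2 fold change 0.58), F3 (0.10), Plat (0.54), Plaur (0.19) and Serpine2 (-0.49) missed the threshold (edgeR adjusted p = 0.544 to 0.737). Of these, F2 and Plat did not overlap, and Plat passed with the 2 groups alone (edgeR adjusted p = 0.0189) and with no filter on low counts (0.0493). How many of all genes had no overlap was not computed, so nothing is read from it.

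The vacuolated states were compared with each other as well, CHIR-vacuolated with BCS-vacuolated cells. Of 7 members 3 passed, all lower with CHIR99021, where 13.2% of all genes passed (5.83% higher and 7.4% lower). Plaur was 3.07-fold lower (log2 fold change -1.62 ± 0.26, edgeR adjusted p = 1.81e-04) and held in every alternative. Plat was 3.47-fold lower (-1.80 ± 0.52, edgeR adjusted p = 0.0360) and Thbd 1.34-fold lower (-0.42 ± 0.13, edgeR adjusted p = 0.0298). All 3 members had no overlap between the 2 groups, but how many of all genes had none was not computed, so nothing is read from it. The Plat call was lost without CHIR-vacuolated replicate 1 (edgeR adjusted p = 0.104), 2 (0.116) or 3 (0.0961) or BCS replicate 1 (0.0943) or 3 (0.145), and the Thbd call without CHIR-vacuolated replicate 1 (0.1004), 2 (0.108) or 3 (0.0619) or BCS replicate 2 (0.129). F3, at 256 against 315 CPM, also had no overlap and missed the threshold (-0.30, edgeR adjusted p = 0.201). Serpine2 did not overlap either, with 6, 12 and 6 counts in CHIR-vacuolated cells against 0, 2 and 3 in BCS-vacuolated cells, and missed the threshold (2.39, edgeR adjusted p = 0.0776). It passed with passage as a covariate (0.0452) and with no filter on low counts (0.0359).

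Serum vesicles were also set against unsorted CHIR-vacuolated cells, and 2 of 7 members were higher and 2 lower, where 58% of all genes passed (30.3% higher and 27.6% lower). Thbd was 9.17-fold lower (log2 fold change -3.20 ± 0.15, edgeR adjusted p = 2.09e-14) and F3 2.43-fold lower (-1.28 ± 0.16, edgeR adjusted p = 2.31e-07). Plat was 3.82-fold higher (1.93 ± 0.52, edgeR adjusted p = 0.00608) and Tfpi 1.69-fold higher (0.75 ± 0.24, edgeR adjusted p = 0.00844). For each of these 4 genes the libraries of the 2 groups did not overlap, nor did they for F2 and Serpine2, which missed the threshold. The share of all genes without overlap was not computed, so this is not read as added support. The Tfpi call was lost without serum vesicle replicate 2 (0.46, edgeR adjusted p = 0.110) or CHIR-vacuolated replicate 3 (0.62, edgeR adjusted p = 0.0547). F2 had a log2 fold change of 1.06 (edgeR adjusted p = 0.102) and Serpine2 of 1.40 (edgeR adjusted p = 0.0646). Each passed with the 2 groups alone (edgeR adjusted p = 0.0330 and 0.0185), and Serpine2 also without CHIR-vacuolated replicate 2 (0.0456). In the main fit Serpine2 passed the filter on low counts only through serum vesicles, and F2 through groups that include them. Both genes are high in serum vesicles, so these passes are not read as support.

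The rest of the pathway was followed in 52 listed genes, of which 50 were in the files and 23 were tested. The other 27 were rare: 5 had 0 counts in all libraries and 16 had 1 to 20 in total. Several clotting factors that the liver makes were among them. F9 had 2 counts in all 18 libraries, F10 had 3, F11 had 3 and F12 had 1, and plasminogen itself (Plg) had 12. The fibrinogen chain genes Fga and Fgb had 110 and 87 counts in serum-free vesicle replicate 2, and 0 to 27 and 0 to 8 in the other libraries. Fga passed the filter on low counts and missed the threshold in every comparison.

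**Figure D4:**
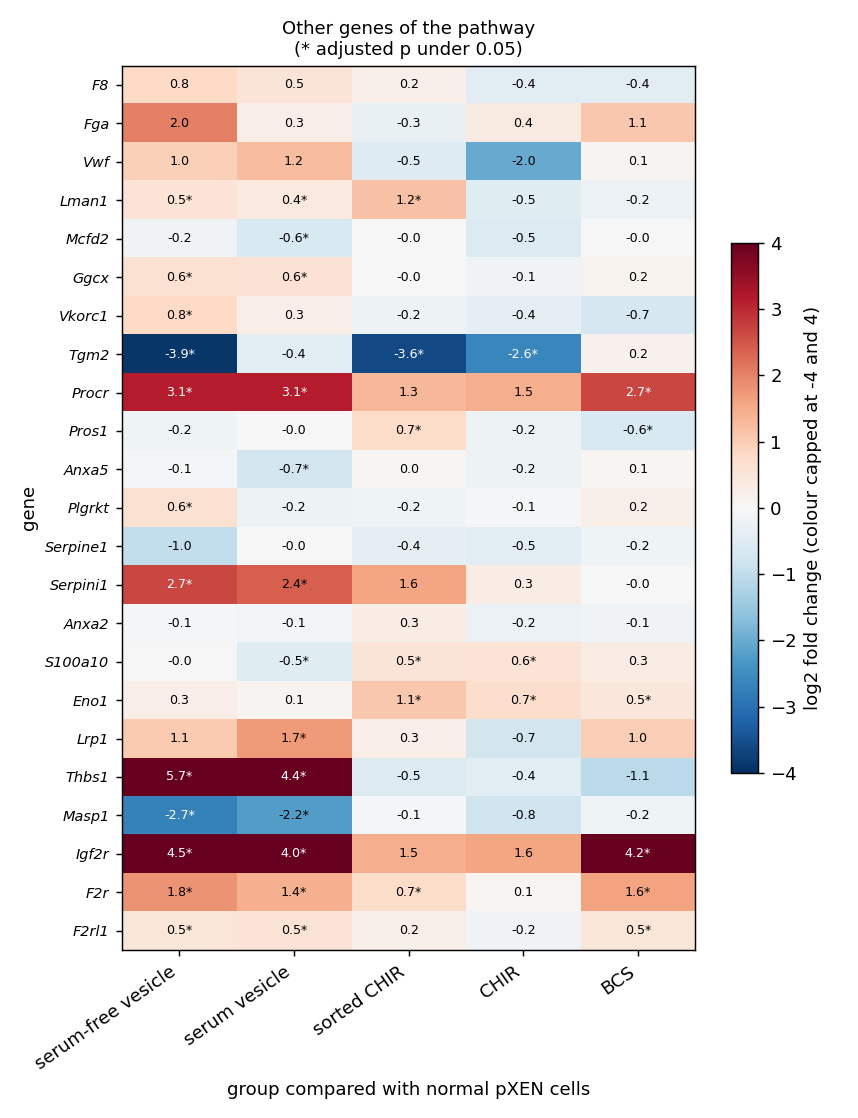
Log2 fold change against normal cells of the 23 other pathway genes tested (rows) in the 5 comparisons with normal cells (columns). Colour and number give the log2 fold change, and an asterisk marks an adjusted p under 0.05. Thbs1 is high and starred in the vesicle columns alone, and F2r is starred in all columns but unsorted CHIR.

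Thbs1 had the largest called rise of these genes in both kinds of vesicle. Of the 23, 10 were higher and 2 lower in serum-free vesicles than in normal cells (median log2 fold change 0.61, against 0.03 over all genes), and 9 were higher and 4 lower in serum vesicles (0.26, against 0.06). Over all genes 57.7% passed in serum-free vesicles and 60.4% in serum vesicles, so the share of the 23 that passed lay near that of all genes. Thbs1, a matrix protein that binds plasminogen system proteins, averaged 44.8 CPM in serum-free vesicles and 18.9 in serum vesicles against 0.885 CPM in normal cells (log2 fold changes 5.68 and 4.40, edgeR adjusted p = 8.12e-08 and 2.91e-06). The thrombin receptor F2r (PAR1) averaged 71.4 CPM in serum-free vesicles and 54.7 in serum vesicles, against 20.5 CPM in normal cells (1.80 and 1.41, edgeR adjusted p = 7.93e-10 and 4.87e-08). Procr, the protein C receptor that works beside thrombomodulin, averaged 3.77 CPM in serum-free vesicles and 3.60 in serum vesicles, against 0.385 CPM in normal cells (3.15 and 3.14, edgeR adjusted p = 8.20e-05 and 8.33e-05). Anxa5, an anticoagulant phospholipid-binding protein, was lower in serum vesicles, at 30.3 CPM against 50.1 CPM in normal cells (-0.73, edgeR adjusted p = 4.96e-05).

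In the vacuolated cells Eno1 and F2r had the smallest p of these genes, Eno1 with CHIR99021 and F2r with BCS. Of the 23, 5 were higher and 1 lower in sorted cells, 2 were higher and 1 lower in unsorted CHIR-vacuolated cells, and 5 were higher and 1 lower in BCS-vacuolated cells (median log2 fold changes 0.19, -0.20 and 0.10, against 0.01, 0.00 and -0.00 over all genes). Over all genes 25.9%, 7.62% and 20.7% passed in these comparisons. In sorted cells Eno1, an enolase that also binds plasminogen, averaged 1193 CPM against 560 in normal cells (1.09, edgeR adjusted p = 3.26e-07), Lman1, whose product carries factors V and VIII out of the endoplasmic reticulum, 66.5 against 29.8 CPM (1.16, edgeR adjusted p = 8.97e-06), and the protein S gene Pros1 96.7 against 57.7 CPM (0.74, edgeR adjusted p = 7.72e-04). In unsorted CHIR-vacuolated cells Eno1 was higher (0.72, edgeR adjusted p = 2.10e-04), as was S100a10, a subunit of a plasminogen receptor (0.55, edgeR adjusted p = 0.0251), and the transglutaminase gene Tgm2 was lower (-2.62, edgeR adjusted p = 0.0303). In BCS-vacuolated cells F2r averaged 62.8 CPM against 20.5 CPM in normal cells (1.62, edgeR adjusted p = 1.29e-07), Igf2r, a receptor that binds urokinase receptor among other ligands, 101 against 5.59 CPM (4.15, edgeR adjusted p = 0.00178, with BCS replicate 2 at 20.8 CPM and the others at 111 and 171), and Procr 2.69 against 0.385 CPM (2.66, edgeR adjusted p = 0.00319).

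The 23 genes were also read in the 4 comparisons between the other groups, in which 24.4% (serum-free against serum vesicles), 11.7% (sorted against unsorted), 13.2% (CHIR- against BCS-vacuolated) and 58% (serum vesicles against CHIR-vacuolated) of all genes passed. In serum-free against serum vesicles 4 of them were higher and 1 lower, with Anxa5 at 47.8 against 30.3 CPM (0.66, edgeR adjusted p = 9.31e-04), the plasminogen receptor Plgrkt at 15.3 against 8.54 CPM (0.84, edgeR adjusted p = 0.00653) and S100a10 at 109 against 79.7 CPM (0.45, edgeR adjusted p = 0.0380). In sorted against unsorted CHIR-vacuolated cells 5 were higher and 18 missed the threshold, with Lman1 at 66.5 against 21.4 CPM (1.64, edgeR adjusted p = 3.06e-07), Pros1 at 96.7 against 50.2 CPM (0.95, edgeR adjusted p = 1.51e-04) and the plasminogen-binding annexin gene Anxa2 at 376 against 260 CPM (0.53, edgeR adjusted p = 0.00606). In CHIR-vacuolated against BCS-vacuolated cells 5 were lower and 18 missed the threshold, with F2r at 21.5 against 62.8 CPM (-1.54, edgeR adjusted p = 4.56e-07), the PAR2 gene F2rl1 at 29.1 against 45.5 CPM (-0.64, edgeR adjusted p = 0.0110) and Tgm2 at 0.357 against 2.52 CPM (-2.79, edgeR adjusted p = 0.0122). In serum vesicles against CHIR-vacuolated cells 13 were higher and 4 lower, with F2r (1.34, edgeR adjusted p = 1.15e-07) and Thbs1 (4.82, edgeR adjusted p = 1.43e-06) higher and S100a10 lower (-1.04, edgeR adjusted p = 4.57e-06).

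For each tested member the 3 genes whose log2 CPM was most like it over the 18 libraries were listed, by Pearson correlation among the 7007 or 7008 genes averaging 3 or more on that scale. The libraries share a split into vesicles and other cultures, which any gene that moves with it will show, so these values describe likeness only. Thbd was most like Stard8 (r = 0.99), Txndc5 (0.98) and Tp53i11 (0.98), which like it were lowest in the vesicles. F3 was most like Tyms (0.98), Hspb8 (0.97) and Rtn4 (0.96). Tfpi was most like the mitochondrially encoded Mt-co2 (0.93), Rad17 (0.92) and Mt-nd3 (0.91), and Plat most like S1pr2 (0.95), Strn (0.90) and Vnn1 (0.89). F2 was most like Btbd3 (0.91), Gatad2b (0.89) and Slc38a2 (0.88). Plaur was most like Fasn (0.82), Tcirg1 (0.81) and Esyt2 (0.81), and Serpine2 most like Specc1 (0.87), Akap10 (0.83) and Ginm1 (0.82).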

How the data were processed

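RNA depleted of ribosomal RNA was sequenced from 18 cultures, per the labels' protocols. The authors deposited counts per gene, unstranded and for each strand. The submitters' processing notes name bcl2fastq, Trimmomatic 0.38, STAR 2.6.1 and the build rn6. The counting settings and the annotation are not given in the sources used here. The counts of column 4 were used, since the opposite strand held 1.70 to 2.85% of the counts on both strands together.

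The fit was made in edgeR 4.0.16 (R 4.3.3), with DESeq2 1.42.0 as an alternative. Genes with low counts were removed by edgeR's filter on groups (minimum count 10), which left 11503, and TMM set the scale. A mean for each of the 6 groups was estimated from the 18 libraries together, which leaves 12 residual degrees of freedom. The biological coefficient of variation was 16.1%. Dispersions were robust, and 9 comparisons went through quasi-likelihood F tests, with p-values adjusted over all genes by Benjamini-Hochberg at 0.05. Standard errors are approximate, from the log2 fold change and its F statistic. Log2 CPM had a prior count of 2. Poisson intervals are exact at 95%.

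The members and the gene lists were chosen with earlier results of these data known. In each comparison the text names the 3 called pathway genes with the smallest adjusted p whose groups did not overlap. Procr in serum vesicles is given in addition. Markers and the rare genes given as examples were picked after their values were seen. A simulation of CHIR-vacuolated against normal cells over 10686 genes gave calls for 30% of genes changed 1.5-fold, 74% at 2-fold and 100% at 4-fold and 8-fold, and for 9 of 10486 unchanged genes. The changed genes lay above a minimum level in normal cells, and counts had the spread typical of genes at their level. F2 and Serpine2 lie below that minimum, and Plat missed the threshold here at 4.28-fold. These shares are therefore not those of the members. Libraries held 4050722 to 12074939 counts. The alternatives were DESeq2, RLE size factors, no filter on low counts, passage as a covariate, a replicate block, the 2 groups fitted alone, unstranded counts, thinning to equal counts, and leaving out each library. The fit with no filter gave some members far smaller p-values than the main fit at like fold changes. Its calls are not read as added support.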

Additional observations from a re-analysis of the deposited data

Results flagged for a closer look

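Column 3, the strand opposite to that used, was read for the members only as a check. Opposite to Thbd, CHIR-vacuolated cells had 0.494 CPM (10 counts, against 4940 on the Thbd strand) and BCS-vacuolated cells had 0.749 CPM (17 counts, against 7533), while normal cells had 0 counts on that strand against 4591 on the Thbd strand. Opposite to F3, CHIR-vacuolated cells had 0.642 CPM (13 counts, against 5146), and normal cells had 0.0575 CPM (1 count, against 4444). These counts are a smaller share of the gene's counts on both strands than the 1.70 to 2.85% found over whole libraries. These are signals in a column that no comparison here used, above the level in normal cells, and what makes them was not tested.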

How the results depend on the processing

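Of 864 recomputed log2 fold changes of single members, 776 kept their direction and side of the threshold, 42 lost the call, 25 gained it and 21 turned sign. The calls of Thbd, F3, Tfpi, F2 and Plat in both kinds of vesicle against normal cells held in all settings in which the gene was tested. F2 in serum-free vesicles was not tested with the 2 groups alone, where it stayed below the filter. It had 4 counts in normal cells and passed the main filter through groups in which it is high. The agreement of the F2 calls over settings is therefore not read as support. For CHIR-vacuolated against normal cells the number of members called was 2 under DESeq2, with no filter and with the replicate block, and 0 with thinned or unstranded counts. For serum-free against serum vesicles it was 4 with no filter and 1 with passage, with the replicate block or with the 2 groups alone, and for sorted against unsorted cells it was 1 with thinned counts. Same-numbered libraries did not deviate together (r from -0.149 to 0.0951), so the numbers are not taken to pair them. All 3 libraries correlated best with their own number in BCS-vacuolated against normal cells alone, which is a hint from the data and not the design.

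With 1 library left out the number of members called was 7 to 8 for any difference among groups, 2 to 3 for BCS-vacuolated against normal, 1 to 2 for CHIR- against BCS-vacuolated, 0 to 1 for CHIR-vacuolated against normal, 3 to 5 for serum vesicles against CHIR-vacuolated, 6 to 7 for serum vesicles against normal, 5 to 7 for serum-free vesicles against normal, 0 to 2 for serum-free against serum vesicles, 4 to 5 for sorted against normal and 1 for sorted against unsorted cells. The filter let in more genes in these fits, so some counts include F5 or Plau, which the main fit did not test. Without serum-free vesicle replicate 3, 11696 genes were tested in place of 11503. Of these, 9009 were called for any difference, with 8 members, and 6277 for serum-free vesicles against normal, with 6 members. Nothing is read from these counts about the members.

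Only uncalled log2 fold changes turned sign. F3 in CHIR-vacuolated against normal cells was -0.00382 under DESeq2, -0.00669 with passage, -0.0101 with the replicate block, -0.00387 with RLE, -0.00290 thinned and -0.00106 unstranded. F2 was -0.0211 in CHIR- against BCS-vacuolated cells unstranded, and thinning gave -0.35 for F2 and -0.0380 for Plaur in sorted against unsorted cells. With 1 library left out, F3 ran from -0.0649 to 0.11 in CHIR-vacuolated and -0.17 to 0.28 in sorted cells against normal, and from -0.17 to 0.28 in sorted against unsorted cells. In serum-free against serum vesicles F2 ran from -0.26 to 0.60 and Plaur from -0.37 to 0.10. Serpine2 ran from -0.0760 to 0.88 in sorted against normal and from -0.84 to 0.0522 in sorted against unsorted cells. The cause was not tested.

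Counts over all genes moved by more than 1.5 times from 876 to 1856 with the 2 groups alone in CHIR-vacuolated against normal cells, from 1350 to 2576 in sorted against unsorted cells, from 2806 to 1223 (alone) and 1866 (thinned) in serum-free against serum vesicles, and from 1522 to 1014 (thinned) in CHIR- against BCS-vacuolated cells. Leaving out 1 library also moved them past that: BCS-vacuolated against normal cells had 1275 in place of 2383 (without BCS replicate 1) and 1530 (normal 2), CHIR-vacuolated against normal 504 (CHIR 1) and 527 (normal 2), CHIR- against BCS-vacuolated 748 (BCS 1), 983 (BCS 3), 863 (CHIR 1) and 815 (CHIR 2), serum-free against serum vesicles 1725 (serum 3), sorted against normal 1982 in place of 2974 (sorted 2), and sorted against unsorted 723 (sorted 2), 739, 690 and 876 (unsorted 1, 2 and 3). Depth limits F2, F5, Plau and Serpine2, which had at most 45 counts in any library.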
